A study of Rattus norvegicus with 11 samples.

Results

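The DCT/CNT cells of the rat kidney are the cells to which the authors gave the joint name DCT/CNT, read here in its usual renal sense as distal convoluted tubule and connecting tubule. They were chosen by that name alone, in a table of 1 line per cell, and numbered 2593 of 114615 cells from 11 kidneys. DCT/CNT was 1 of 21 type names. The neighbours used for comparison were DCT (distal convoluted tubule, 2669 cells), PC (principal cells of the collecting duct, 1260 cells), the intercalated types IC-A (2552 cells), IC-B (2298 cells) and IC-A/B (1777 cells), and, upstream, TAL (thick ascending limb, 2009 cells) and TAL/MD (thick limb and macula densa, 4942 cells). The table used here holds no gene values, so the name could not be checked against Slc12a3, the thiazide-sensitive sodium chloride cotransporter, Calb1, the calcium-binding protein calbindin, or Slc8a1, a sodium-calcium exchanger.

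The study compared 3 enalapril-treated obese rats, 4 obese rats and 4 lean rats, each giving 1 droplet single-cell library of the kidney. All were male ZSF1 rats, obtained at 12 weeks of age and fed a high-energy chow, and the labels give the genotype ZSF1-LeprfaLeprcp/Crl for every group, lean rats included. Obese ZSF1 rats, in which the leptin receptor does not work, are used to model diabetic kidney disease, and lean rats of the strain were the controls. Enalapril, an inhibitor of angiotensin-converting enzyme, was given in the drinking water, and the other obese rats drank the vehicle. The sources used here do not give the dose, the length of treatment, the age at sampling or whether the lean rats also drank vehicle. Because the drug was set by body mass and by the average water intake of a cage, the amount taken by a single rat was not measured directly.

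The end of the distal convoluted tubule and the connecting tubule form a short stretch of the nephron in which the final amounts of sodium, potassium and calcium in the urine are set. Sodium is taken up there through the thiazide-sensitive cotransporter and, further along, through the epithelial sodium channel, whose activity aldosterone raises. Calcium is taken up through a channel in the luminal membrane, carried across the cell by calbindin and passed to the blood by the sodium-calcium exchanger. Distal convoluted tubule cells are rich in mitochondria, which supply the sodium pump, and angiotensin-converting enzyme inhibitors lower angiotensin II and aldosterone, the hormones that act on this stretch.

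The libraries differed in depth. Their totals lay between 1817129 UMIs in lean rat 2 and 56007489 UMIs in obese rat 4 (UMIs are the distinct RNA molecules counted per cell). Lean rat 2 stood apart from every other library, with a median of 407 UMIs per cell and 99.7% of its cells under 1000 UMIs, so its part in the comparisons with lean rats is given beside them. Of the 2593 DCT/CNT cells, 75 carried a barcode that another library also held (2.89%, against 2.86% of all cells), and no pair of libraries shared more than 0.681% of the smaller one. The cells were counted after digestion and removal of dead cells, so fewer cells in the kidney and fewer cells recovered cannot be told apart. Each animal is 1 replicate, and each rat was a separate animal.

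DCT/CNT cells made up a smaller share of all cells in obese than in lean kidneys, and the difference rested on a few animals. The enalapril-treated obese rats 1 to 3 had 338, 320 and 197 DCT/CNT cells, which was 1.88%, 2.79% and 2.52% of their cells. Obese rats 1 to 4 had 207, 107, 265 and 152 such cells, or 1.91%, 1.52%, 2.30% and 0.825%. Lean rats 1 to 4 had 290, 321, 249 and 147, or 2.60%, 7.59%, 3.23% and 2.27%. Lean rat 2 lay far above every other animal, obese rat 4 lay lowest, and obese rat 3 overlapped with lean rat 4. Counting error was small beside this spread: the exact 95% Clopper-Pearson interval was 0.699% to 0.966% in obese rat 4 and 6.81% to 8.42% in lean rat 2, and such intervals cover counting error only.

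The mean share (± SD) was 2.40% ± 0.468 over the 3 enalapril-treated obese rats, 1.64% ± 0.628 over the 4 obese rats and 3.92% ± 2.47 over the 4 lean rats. Obese rats had a lower share than lean rats in edgeR's quasi-likelihood test over 20 types (log2 fold change -1.26 ± 0.45 SE, adjusted p = 0.0213). In that comparison 12 of the 20 types (60%) passed at an adjusted p under 0.05, so a call there was common. B cells, T cells, Mono and Mono/Macro cells were 4 of the 6 types that rose, and DCT (-2.07 ± 0.43), IC-A (-1.64 ± 0.53), IC-B (-1.73 ± 0.51) and IC-A/B cells (-1.18 ± 0.49) were among the 6 that fell. Without lean rat 2 the DCT/CNT difference was -0.73 ± 0.44 and did not pass (adjusted p = 0.151). The call was likewise lost when obese rat 2 was left out (-1.22 ± 0.52, adjusted p = 0.0584) and when obese rat 4 was (-1.03 ± 0.44, adjusted p = 0.0545). Counting only cells with 1000 UMIs or more gave -0.64 ± 0.50 (edgeR, adjusted p = 0.308). In that fit lean rat 2 had only 12 cells left, 0 of them DCT/CNT.

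The share in enalapril-treated obese rats was not called against that in obese rats by the same test (log2 fold change 0.55 ± 0.47, adjusted p = 0.518). In that comparison edgeR called 0 of 20 types (0%), with 2 at an unadjusted p under 0.05. DESeq2 called 1, and limma and the exact permutation test called 0. The exact permutation test can give no p under 0.0286. That passes the adjustment only if most types reach it, so its 0 carries no evidence. Against lean rats the edgeR log2 fold change of the share was -0.70 ± 0.48 (adjusted p = 0.296), where 3 of 20 types (15%) passed. It was -0.17 ± 0.47 with lean rat 2 left out (adjusted p = 0.839).

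Set against tubule and duct cells alone, which leaves out the immune, endothelial and other types, the difference between obese and lean rats was smaller. DCT/CNT cells made up 2.31%, 3.59% and 3.46% of the tubule and duct cells in enalapril-treated obese rats 1 to 3. Obese rats 1 to 4 had 3.03%, 2.82%, 3.96% and 1.29%, and lean rats 1 to 4 had 3.57%, 8.50%, 4.80% and 2.76%. Groups overlapped in every pairing. The log2 fold change was -0.82 ± 0.42 for obese against lean rats (edgeR, adjusted p = 0.143), where 3 of 12 types (25%) passed. It was -0.65 ± 0.46 for enalapril-treated obese against lean rats (adjusted p = 0.304), where again 3 of 12 (25%) passed. Between enalapril-treated obese and obese rats it was 0.17 ± 0.45 (adjusted p = 0.977), and edgeR called 0 of 12 types (0%), with 1 at an unadjusted p under 0.05. There DESeq2 called 1 type and limma called 0. The exact permutation test called 0 as well, and could call a type only if most types reached its smallest p, 0.0286. The log2 fold change without lean rat 2 was nearer 0, at -0.42 ± 0.39 for obese against lean rats (edgeR, adjusted p = 0.607) and -0.25 ± 0.42 for enalapril-treated obese against lean rats (adjusted p = 0.715).

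Within the distal tubule and collecting duct, lean rats had the lowest mean share, while they had the highest among all cells and among tubule and duct cells. Of all DCT, DCT/CNT, PC, IC-A, IC-B and IC-A/B cells, DCT/CNT cells made up 20.3%, 26.0% and 30.3% in enalapril-treated obese rats 1 to 3. They made up 26.1%, 16.7%, 18.4% and 21.3% in obese rats 1 to 4, and 15.1%, 19.1%, 18.4% and 13.8% in lean rats 1 to 4. Each of the 3 enalapril-treated obese rats lay above every lean rat, while obese rats overlapped with both. The means were 25.5% ± 5.02, 20.7% ± 4.11 and 16.6% ± 2.58 in enalapril-treated obese, obese and lean rats (SD, n = 3, 4 and 4).

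The difference between enalapril-treated obese and lean rats was 0.61 ± 0.30 on the log2 scale and did not pass in edgeR's test over the 6 types (adjusted p = 0.0697). It passed without lean rat 2 (0.69 ± 0.30, adjusted p = 0.0430), without enalapril-treated rat 1 (0.76 ± 0.27, adjusted p = 0.0264) and among cells with under 25% mitochondrial UMIs (1.25 ± 0.35, adjusted p = 0.00703). In that comparison 2 of 6 types (33.3%) passed, PC higher (1.25 ± 0.31) and IC-A/B lower (-0.89 ± 0.32). For obese against lean rats the DCT/CNT value was 0.31 ± 0.28 (adjusted p = 0.390), or 0.39 ± 0.29 without lean rat 2 (adjusted p = 0.273), and 2 of 6 types (33.3%) passed, PC higher (1.05 ± 0.29) and DCT lower (-0.77 ± 0.28). For enalapril-treated obese against obese rats it was 0.30 ± 0.30 (adjusted p = 0.682), and 1 of 6 types (16.7%) passed, IC-A/B cells.

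**Figure D1:**
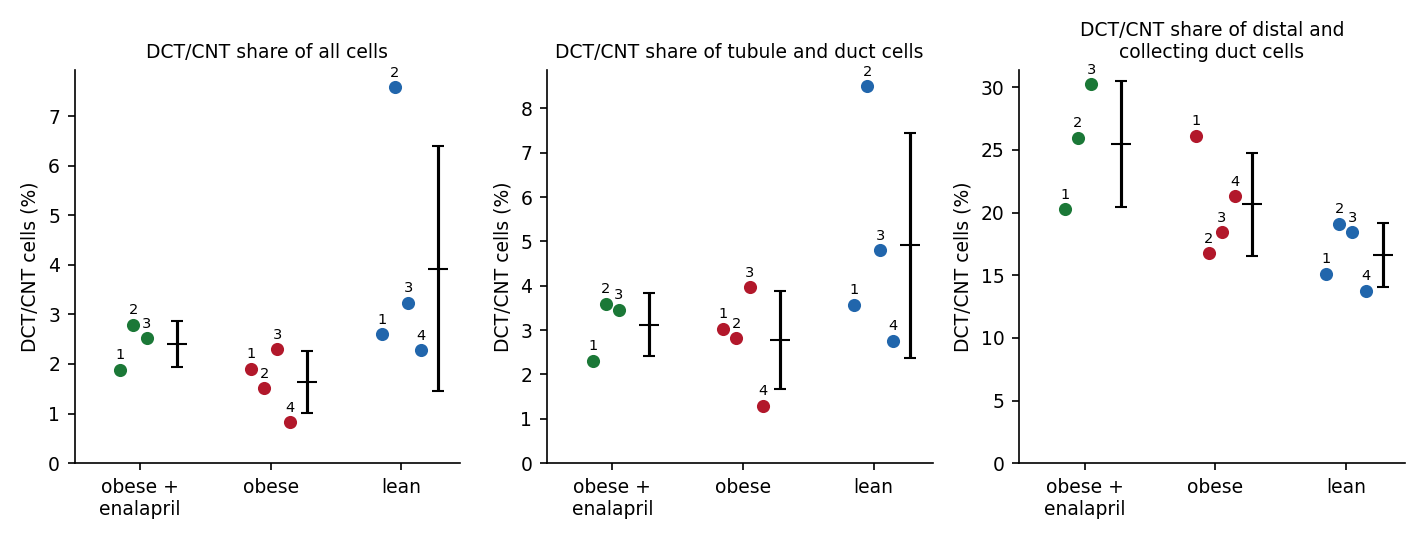
Share of DCT/CNT cells in each animal (points, numbered by rat), as a percent of all cells, of tubule and duct cells, and of distal tubule and collecting duct cells, with the group mean and SD beside the points. Lean rat 2 stands apart at 7.59% of all cells and 8.50% of tubule and duct cells, and in the right panel the enalapril-treated obese rats, at 20.3% to 30.3%, lie above all lean rats and overlap with the obese rats.

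DCT/CNT and DCT cells were also set against each other, since both names cover the distal convoluted tubule. DCT/CNT cells were 61.2%, 59.5% and 59.2% of this pair in enalapril-treated obese rats, and 60.3%, 47.8%, 57.6% and 62.0% in obese rats. In lean rats they were 31.5%, 56.3%, 48.1% and 26.3%. All 3 enalapril-treated obese rats lay above every lean rat, and of the obese rats only rat 2 lay below the highest lean rat. The mean difference was 16.4 percentage points for obese against lean rats (exact two-sided permutation p = 0.0857, adjusted over 3 comparisons 0.129). It was 19.4 points for enalapril-treated obese against lean rats (exact permutation p = 0.0571, the smallest that 3 against 4 animals can give when the smaller tail is doubled, as was done here, adjusted 0.129). Between enalapril-treated obese and obese rats it was 3.02 points (exact permutation p = 0.629). None of the 3 passed after adjustment, and with the tail doubled none could have at these group sizes, whatever the data. Leaving out lean rat 2, the difference was 21.6 points for obese against lean rats (exact permutation p = 0.114). It was 24.7 points for enalapril-treated obese against lean rats (exact permutation p = 0.1, the smallest that 3 against 3 animals can give). Set against the principal cells, which follow the connecting tubule, there were 1.77, 1.75 and 1.99 DCT/CNT cells per PC cell in enalapril-treated obese rats. Obese rats had 1.68, 1.39, 1.60 and 2.38, and lean rats 1.80, 5.26, 3.15 and 2.63, so that lean rats 2 to 4 lay above all the rest.

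DCT/CNT cells were among the types with the most RNA per cell. Over all members the median was 3603 UMIs (quartiles 1790 and 6174, range 242 to 16578) and 1322 genes per cell. The median per animal was 2214.5, 6095.5 and 5285 UMIs in enalapril-treated obese rats, 5437, 5297, 6120 and 3660 in obese rats, and 1768, 435, 4678 and 4065 in lean rats. Lean rats 1 and 2 and enalapril-treated rat 1 were the lowest, and these were also the animals with the fewest UMIs per cell over all types. The median of DCT/CNT cells exceeded that of all cells in each of the 11 animals, by 1.96, 2.23 and 2.12 times in enalapril-treated obese rats, 2.80, 2.58, 1.98 and 1.45 times in obese rats, and 1.25, 1.07, 2.10 and 1.97 times in lean rats.

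Among the 17 to 20 types with at least 20 cells in an animal, DCT/CNT cells ranked among the 4 highest in median UMIs in 8 of 11 animals. They exceeded DCT cells in 11 of 11 animals, by 1.44 to 4.48 times, and TAL cells in 11 of 11, by 1.64 to 5.32 times. PC cells were closer, with DCT/CNT cells higher in 9 of 11 animals at a ratio of 0.861 to 1.66. IC-A cells were higher than DCT/CNT cells in 10 of 11 animals and IC-B cells in 8 of 11. These differences between types describe clusters that were made from the same cells, and they were not tested.

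Between groups, the median UMIs of DCT/CNT cells did not pass limma's test over 18 types. The log2 difference was 1.37 ± 0.64 for obese against lean rats (adjusted p = 0.254), 1.08 ± 0.69 for enalapril-treated obese against lean rats (adjusted p = 0.667) and -0.28 ± 0.69 for enalapril-treated obese against obese rats (adjusted p = 0.921). limma called 0 of 18 types (0%) in each of the 3 comparisons, with 3, 1 and 0 types at an unadjusted p under 0.05. Without lean rat 2 the log2 difference was 0.64 ± 0.39 for obese against lean rats (adjusted p = 0.454) and 0.36 ± 0.42 for enalapril-treated obese against lean rats (adjusted p = 0.975). Median genes per cell were 929, 1958 and 1646 in enalapril-treated obese rats, 1809, 1818, 2012 and 1281 in obese rats, and 776, 229, 1550 and 1533 in lean rats, and the log2 difference of obese against lean rats was 1.08 ± 0.52 (adjusted p = 0.303), or 0.48 ± 0.30 without lean rat 2 (adjusted p = 0.495). For genes too, limma called 0 of 18 types in each comparison, with 2, 1 and 0 at an unadjusted p under 0.05.

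Relative to all cells of the same animal, the log2 difference in UMIs was 0.48 ± 0.26 for obese against lean rats (limma, adjusted p = 0.273), where 3 of 18 types (16.7%) passed. It was 0.45 ± 0.28 for enalapril-treated obese against lean rats (adjusted p = 0.490), where 1 of 18 (5.56%) passed. Between enalapril-treated obese and obese rats it was -0.025 ± 0.28 (adjusted p = 0.966), where 2 of 18 (11.1%) passed. The values against lean rats without rat 2 were 0.31 ± 0.25 for obese rats (adjusted p = 0.531) and 0.28 ± 0.27 for enalapril-treated obese rats (adjusted p = 0.757). No cell in the table had more than 2971 genes, and the share of DCT/CNT cells with at least 2500 genes was highest in obese rat 3, at 24.2%.

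From 1000 UMIs up, the mean share of DCT/CNT cells in each group was higher in each deeper band of UMIs. Of cells with at least 1000 and under 2000 UMIs, DCT/CNT cells made up 0.840% ± 0.911 over the 3 enalapril-treated obese rats, 0.335% ± 0.269 over the 4 obese rats and 1.26% ± 0.771 over 3 lean rats, without lean rat 2 (mean ± SD). Of cells with at least 2000 and under 4000 UMIs the shares were 2.81% ± 1.77, 1.07% ± 0.424 and 3.06% ± 0.883 in the same order of groups. In that band obese rats ran from 0.652% to 1.66%, below all lean rats, which ran from 2.33% to 4.04%. Of cells with at least 4000 and under 8000 UMIs they were 5.57% ± 0.340, 4.61% ± 2.43 and 5.56% ± 2.60, and the groups overlapped. Single animals did not all follow their group: lean rat 1 had 3.31% in this band, against 4.04% in the band before it, and obese rat 4 had 0.652% with at least 2000 and under 4000 UMIs, against 0.694% with at least 1000 and under 2000. Below 1000 UMIs the order differed in lean rats, whose mean was 2.64% ± 3.19 with at least 500 UMIs (n = 4, with lean rat 2), and lean rat 4 had 1.22% there, against 0.702% with at least 1000 and under 2000 UMIs. Lean rat 2 had almost all its cells below these bands: of its 3095 cells under 500 UMIs, 239 were DCT/CNT cells (7.72%), and of its 1125 cells with at least 500 and under 1000 UMIs, 82 were (7.29%). In the other 10 animals the share among cells with at least 500 and under 1000 UMIs was at most 1.97%. Restricted to cells of 2000 to 8000 UMIs, a range chosen after these shares were seen and one that leaves lean rat 2 out, the share of all cells differed between obese and lean rats by -0.81 ± 0.58 on the log2 scale (edgeR, adjusted p = 0.293).

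**Figure D2:**
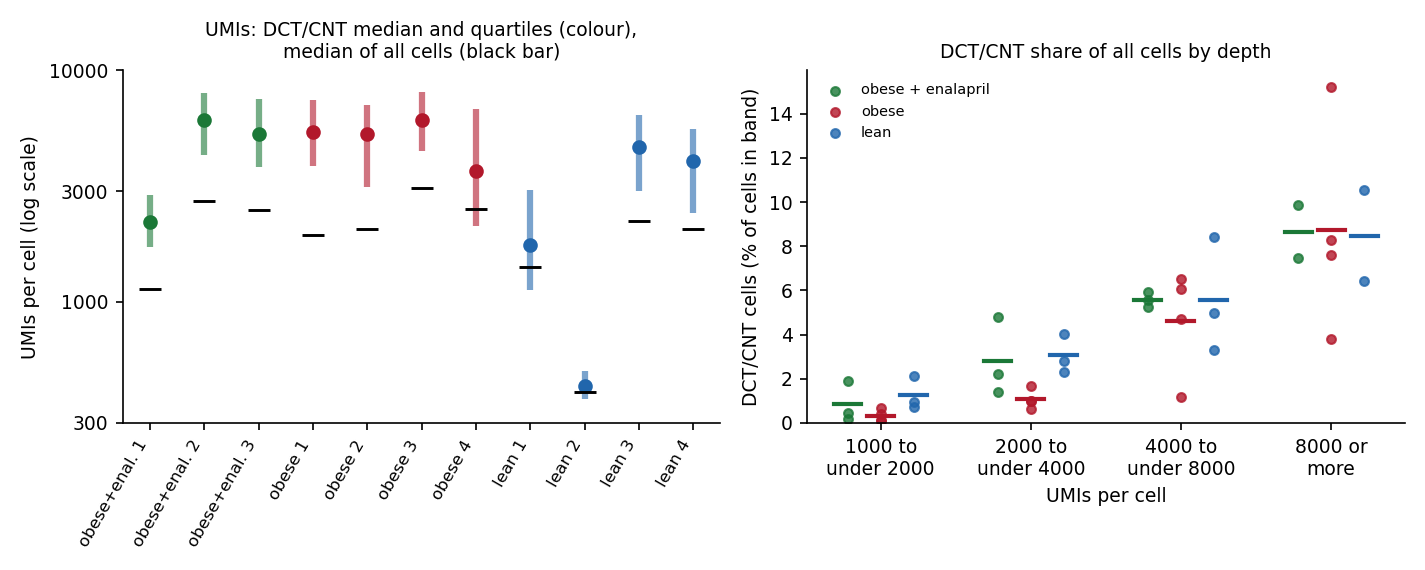
Left, UMIs per DCT/CNT cell in each animal on a log scale (point, median; coloured bar, quartiles), with the median of all cells of the animal as a black bar. Right, DCT/CNT cells as a percent of the cells in each band of UMIs, 1 point per animal with at least 100 cells in the band and the group mean as a line; the group means climb over the bands drawn. Bands under 1000 UMIs, which hold 99.7% of the cells of lean rat 2, are not drawn, so that animal has no point.

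Mitochondrial genes gave a large part of the RNA of DCT/CNT cells, and groups differed past the threshold only when it was read against the other cells of the animal. Over all members the median was 18.2% of UMIs (quartiles 9.17% and 30.1%). The median per animal was 6.87%, 15.9% and 20.6% in enalapril-treated obese rats, 25.2%, 20.1%, 19.7% and 22.6% in obese rats, and 25.5%, 13.3%, 30.4% and 17.2% in lean rats. Enalapril-treated rat 1 was the lowest, and its cells of all types had a median of 4.56%. Lean rats spanned the widest range and overlapped with both other groups. The difference was 0.30 ± 4.07 percentage points for obese against lean rats (limma, adjusted p = 0.943), where 1 of 18 types (5.56%), DCT, passed, and it turned to -2.48 ± 3.92 without lean rat 2 (adjusted p = 0.695). It was -7.14 ± 4.39 for enalapril-treated obese against lean rats (adjusted p = 0.798), or -9.92 ± 4.19 without lean rat 2 (adjusted p = 0.356), where 1 of 18 (5.56%), again DCT, passed with all animals. It was -7.44 ± 4.39 for enalapril-treated obese against obese rats (adjusted p = 0.694), where limma called 0 of 18 (0%), with 1 at an unadjusted p under 0.05.

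DCT/CNT cells with at least 25% mitochondrial UMIs were 6.80%, 26.6% and 37.6% of the type in enalapril-treated obese rats. They were 50.7%, 34.6%, 35.1% and 47.4% in obese rats, and 51.0%, 15.0%, 61.4% and 37.4% in lean rats. The deposited cells reached 49.99%, so cells above that are not in the table.

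Read against all cells of the same animal, the mitochondrial percent of DCT/CNT cells was lowest in enalapril-treated obese rats. The median of DCT/CNT cells exceeded that of all cells by 2.31, 4.21 and 1.29 percentage points in enalapril-treated obese rats. It exceeded it by 9.71, 4.94, 9.20 and 12.0 points in obese rats, and by 15.2, 10.4, 20.2 and 10.7 points in lean rats. Every enalapril-treated obese rat lay below every other rat, and obese and lean rats overlapped through obese rat 4 alone. Enalapril-treated obese rats differed from lean rats by -11.5 ± 2.62 percentage points (limma, adjusted p = 0.00304, lower in 3 of 3 animals), where 2 of 18 types (11.1%) passed, DCT/CNT lower and DCT higher. The DCT/CNT call held in each of the 11 fits that left out 1 animal, with values of -12.8 to -9.48. In the same comparison TAL/MD (-6.42 ± 2.98, limma, adjusted p = 0.202) and PC cells (-5.46 ± 2.72, adjusted p = 0.215) also lay lower without passing. IC-A (-2.40 ± 2.72) and IC-B cells (-0.92 ± 3.81) lay lower by less. TAL (12.0 ± 4.37) and IC-A/B cells (2.58 ± 3.25) lay higher without passing, and the median over the 18 types was -2.46.

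The medians of all cells, from which these distances are taken, were 4.56%, 11.7% and 19.3% in enalapril-treated obese rats, 15.5%, 15.2%, 10.5% and 10.6% in obese rats, and 10.3%, 2.90%, 10.2% and 6.52% in lean rats. The distance therefore moves with the other cells of the animal as well as with DCT/CNT cells. Obese rats differed from lean rats by -5.15 ± 2.42 points (adjusted p = 0.214), or -6.40 ± 2.40 without lean rat 2 (adjusted p = 0.134), where 2 of 18 types (11.1%), DCT and TAL, passed as higher. Enalapril-treated obese rats differed from obese rats by -6.36 ± 2.62 points (adjusted p = 0.154), where 2 of 18 types (11.1%), DCT and TAL/MD, passed as lower.

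Against the tubule and duct cells of the animal, an alternative chosen after the first values were seen, the distance was 1.50, 1.33 and -2.90 points in enalapril-treated obese rats. It was 2.70, -2.39, 2.66 and 6.86 points in obese rats and 12.3, 9.72, 16.0 and 9.26 points in lean rats. On this scale every obese rat lay below every lean rat, and the difference of obese against lean rats passed (-9.37 ± 2.50, limma, adjusted p = 0.0129). The difference of enalapril-treated obese against lean rats passed as well (-11.9 ± 2.71, adjusted p = 0.00339), and that of enalapril-treated obese against obese rats did not (-2.48 ± 2.71, adjusted p = 0.668). The tubule and duct medians, from which this distance is taken, averaged 14.5%, 19.4% and 9.77% in enalapril-treated obese, obese and lean rats. The DCT/CNT medians averaged 14.5%, 21.9% and 21.6% in the same order. The obese and lean rats thus differed in the tubule and duct medians, while their DCT/CNT medians were close. Among cells of 2000 to 8000 UMIs, also chosen after seeing the data, the distance to all cells passed between enalapril-treated obese and obese rats (-7.51 ± 2.73, adjusted p = 0.0354). In that range enalapril-treated obese rats also differed from lean rats (-10.2 ± 2.92, adjusted p = 0.0102). Whether enalapril-treated obese rats were called against obese rats thus depended on the cells counted, while their difference from lean rats passed in all 3 settings.

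**Figure D3:**
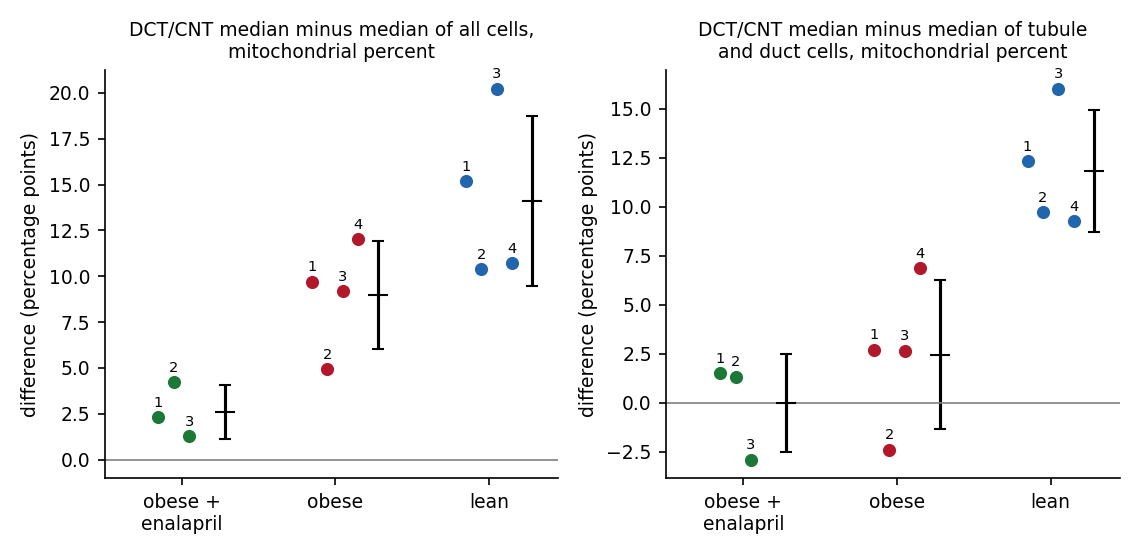
Median mitochondrial percent of DCT/CNT cells minus the median of all cells of the same animal (left) and of its tubule and duct cells (right), in percentage points, for each animal (points, numbered by rat) with the group mean and SD. The enalapril-treated obese rats lie between 1.29 and 4.21 points on the left, below all other rats, and all lean rats lie above all obese rats on the right.

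The relation of DCT/CNT to DCT cells, the nearest type on the authors' map, was turned round between lean and obese kidneys. The median mitochondrial percent of DCT cells was 6.50%, 24.6% and 28.4% in enalapril-treated obese rats, 33.9%, 27.4%, 25.8% and 33.5% in obese rats, and 1.16%, 0%, 4.75% and 0.136% in lean rats. DCT/CNT cells minus DCT cells was thus 0.370, -8.66 and -7.80 percentage points in enalapril-treated obese rats, and -8.72, -7.30, -6.15 and -10.8 in obese rats. In lean rats it was 24.3, 13.3, 25.7 and 17.1. DCT/CNT cells lay below DCT cells in 4 of 4 obese rats and above them in 4 of 4 lean rats. The lean DCT medians were near the floor, and in lean rats 1 and 4 DCT had the lowest median of all types with at least 20 cells. Whether the cells named DCT are alike in lean and obese rats could not be checked without gene values.

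In obese against lean rats the mean gap was -28.3 percentage points apart (exact two-sided permutation p = 0.0286, the smallest that 4 against 4 animals can give, adjusted over 3 comparisons 0.0857). Enalapril-treated obese and lean rats differed by -25.5 points (exact permutation p = 0.0571 with the smaller tail doubled, adjusted 0.0857), and enalapril-treated obese and obese rats by 2.89 points (exact permutation p = 0.457). With the tail doubled, no adjusted value could fall under 0.05 at these group sizes, whatever the data. Counted instead as the share of arrangements at least as far from 0, a choice made after seeing the data, the exact permutation p was 0.0286 for both differences from lean rats, and both then passed (adjusted 0.0429). Without lean rat 2 the differences were -30.6 points for obese against lean rats (exact permutation p = 0.0571) and -27.7 points for enalapril-treated obese against lean rats (exact permutation p = 0.1). With the tail doubled, both are the smallest p that the remaining animals can give, so they cannot show a weaker difference. DCT/CNT medians were 0.30 points and DCT medians 28.6 ± 4.3 points higher in obese than in lean rats (limma, adjusted p = 0.000750), so the turn lay in the DCT values. Among cells with under 25% mitochondrial UMIs the gap differed by -6.05 points between obese and lean rats (exact permutation p = 0.0571).

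PC cells did not show such a turn, and TAL cells showed it in part. DCT/CNT cells minus PC cells was 2.56, 1.46 and -1.92 percentage points in enalapril-treated obese rats, 6.20, -3.92, 3.55 and 3.37 in obese rats, and 8.45, 10.1, 7.51 and 1.02 in lean rats. The median mitochondrial percent of TAL cells was 7.51%, 31.4% and 35.4% in enalapril-treated obese rats. It was 29.2%, 38.5%, 29.9% and 17.6% in obese rats, and 16.6%, 0%, 15% and 1.71% in lean rats. DCT/CNT cells thus lay above TAL cells in every lean rat and in obese rat 4, and below them in the other rats. They lay above TAL/MD cells in 3 of 11 animals, lean rats 1 to 3. Compared with other types of the animal, DCT/CNT cells had the highest median mitochondrial percent in lean rats 1, 2 and 3, stood in place 4 in lean rat 4, and stood in places 3 to 10 in the 7 rats of both obese groups.

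**Figure D4:**
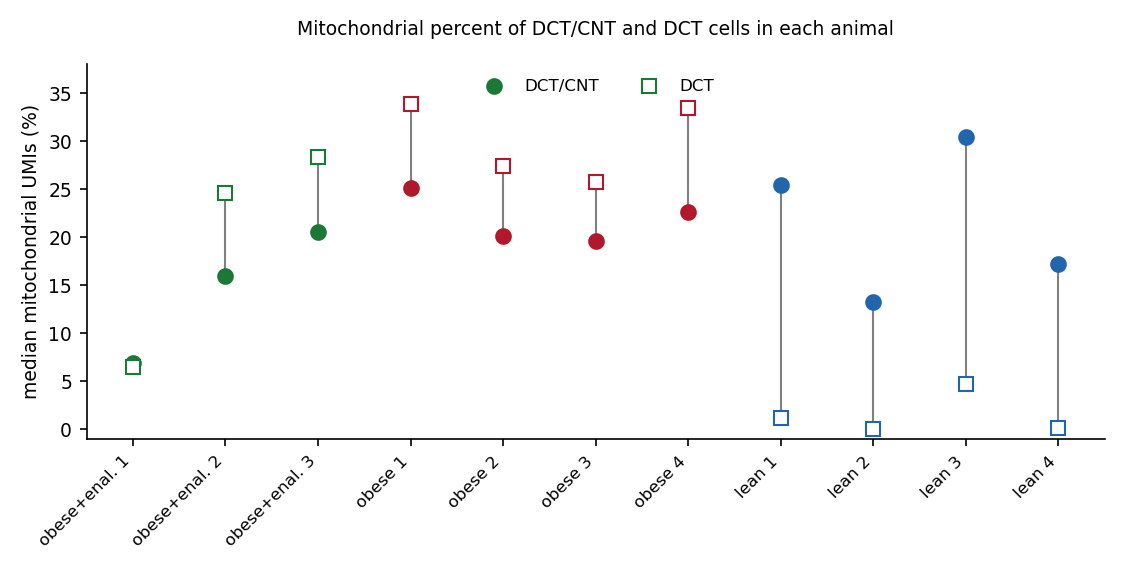
Median mitochondrial percent of DCT/CNT cells (filled circles) and DCT cells (open squares) in each animal, joined by a line. DCT/CNT lies below DCT in all 4 obese rats and in enalapril-treated rats 2 and 3, and 13.3 to 25.7 points above it in the 4 lean rats.

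Few DCT/CNT cells carried the authors' call of G2M, the cell cycle phase of growth and division after DNA synthesis. G2M calls made up 17.5%, 11.3% and 12.7% of DCT/CNT cells in enalapril-treated obese rats, 14.5%, 17.8%, 19.6% and 14.5% in obese rats, and 13.8%, 18.1%, 10.4% and 12.9% in lean rats. In each of the 11 animals this was below the share among all cells, which was 20.9% to 24.6% in enalapril-treated obese rats, 28.6% to 33.8% in obese rats and 19.1% to 24.1% in lean rats. DCT/CNT cells were among the 3 types with the lowest share in 7 of 11 animals, and they lay below IC-A, IC-B and IC-A/B cells in 11 of 11, below DCT and TAL cells in 10 of 11 and below PC cells in 9 of 11. They lay above TAL/MD cells in 7 of 11.

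The G2M share of DCT/CNT cells was 2.78 ± 2.44 percentage points higher in obese than in lean rats and did not pass (limma, adjusted p = 0.479), where 3 of 18 types (16.7%) did, DCT, TAL and Mono. For enalapril-treated obese against lean rats the difference was -0.0085 ± 2.64 points (adjusted p = 0.997) and for enalapril-treated obese against obese rats -2.79 ± 2.64 points (adjusted p = 0.852), where limma called 0 of 18 types (0%) in each, with 1 and 2 at an unadjusted p under 0.05. When lean rat 2 was left out, the G2M values against lean rats were 4.20 ± 2.71 points for obese rats (adjusted p = 0.279) and 1.41 ± 2.90 for enalapril-treated obese rats (adjusted p = 0.980). Calls of S, the phase of DNA synthesis, made up 30.2%, 30.3% and 34.0% of DCT/CNT cells in enalapril-treated obese rats, 29.0%, 34.6%, 30.2% and 24.3% in obese rats, and 31.0%, 13.1%, 32.9% and 42.9% in lean rats. The lowest value was again in lean rat 2. The S share differed by -0.45 ± 5.52 points between obese and lean rats (adjusted p = 0.945) and by 1.52 ± 5.96 between enalapril-treated obese and lean rats (adjusted p = 0.964). It differed by 1.98 ± 5.96 between enalapril-treated obese and obese rats (adjusted p = 0.936), and limma called 0 of 18 types in each of these comparisons, with 2, 1 and 0 at an unadjusted p under 0.05. The S values against lean rats turned negative without rat 2, at -6.08 ± 3.38 points for obese rats (adjusted p = 0.447) and -4.11 ± 3.62 for enalapril-treated obese rats (adjusted p = 0.753).

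The median S and G2M scores over all DCT/CNT cells were below 0 in every animal, the scores of the called cells alone were not examined, and the calls are not read here as cycling. Cells could not be thinned to 1 depth without gene values. Within DCT/CNT cells of at least 5000 UMIs the G2M share was 9.27% in enalapril-treated rat 2 and 7.55% in rat 3, against 16.5% and 18.4% among cells of at least 2000 and under 5000 UMIs in the same rats. It was lower in the deeper of these bands in all 8 animals with at least 20 DCT/CNT cells in both, with differences of -10.8 to -1.84 points. There was no steady trend with depth: of the 5 animals with enough cells in both, the band of 2000 to under 5000 UMIs had a higher share than cells under 2000 UMIs in 4 and a lower one in obese rat 4 (11.5% against 28.6%). The part of depth or of free RNA in the phase calls was not tested.

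**Figure D5:**
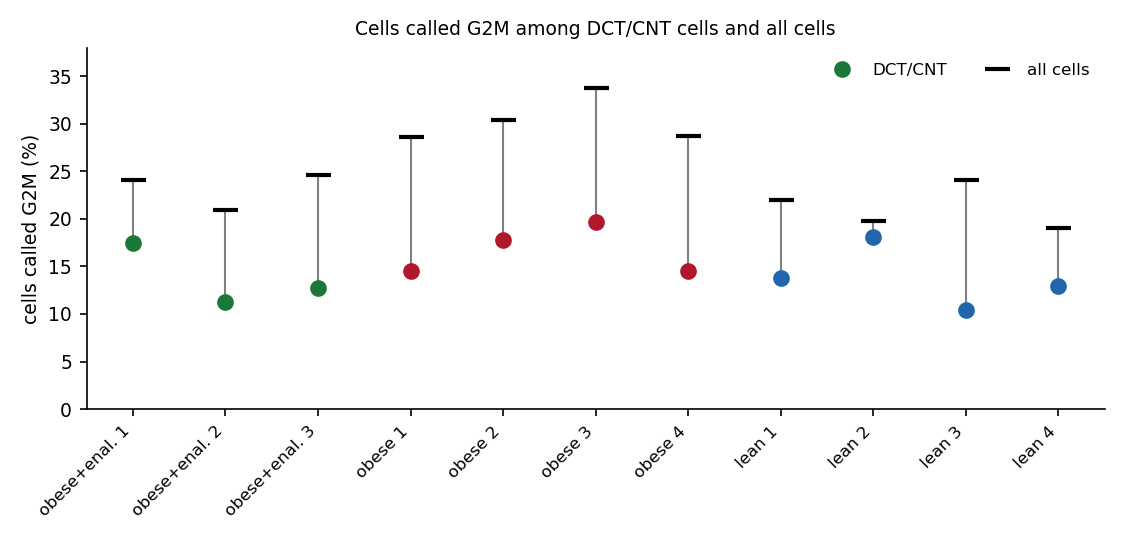
Percent of cells called G2M among DCT/CNT cells (points) and among all cells of the animal (black bars), for each animal. DCT/CNT cells lie below all cells in 11 of 11 animals, by the smallest distance in lean rat 2.

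On the authors' map of the cells, DCT/CNT cells lay mostly among their own type, with DCT and PC as the nearest other types. Of the 20 nearest neighbours of a DCT/CNT cell, 88.5% were DCT/CNT cells, 4.68% DCT cells and 4.42% PC cells, and all other types together made up the small rest. The centre of the type lay nearest to that of DCT, then to that of PC, at distances of 1.91 and 2.52 map units, and then to that of TAL, at 4.44. The neighbours of the own type were 84.9%, 87.4% and 85.4% in enalapril-treated obese rats, 83.6%, 85.7%, 83.5% and 84.7% in obese rats, and 92.6%, 95.8%, 93.2% and 93.3% in lean rats. All 7 rats of both obese groups lay below all 4 lean rats. PC neighbours made up 4.07%, 5.77% and 6.37% in enalapril-treated obese rats, 7.56%, 8.88%, 7.72% and 4.41% in obese rats, and 2.76%, 0.639%, 2.03% and 1.73% in lean rats, and DCT neighbours were likewise fewer in lean rats, at 1.18% to 3.17%. A map keeps nearness only in part and was built from the same cells, so these values describe its layout and were not tested.

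Cells at the edge of the group were few. In all, 179 DCT/CNT cells (6.90%) had under 50% of their own type among their neighbours. They had a median of 4066 UMIs and 16.2% mitochondrial UMIs, against 3565 UMIs and 18.3% in the other 2414 cells, and 20.1% of them were called G2M, against 14.5%. Whether any are doublets was not tested, since the table holds no gene values.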

How the data were processed

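The authors deposited 1 table of 114615 cells with an animal, a group, 1 of 21 type names, UMIs, genes, mitochondrial share, phase and map position for each cell. Per the file headers, the deposited UMIs and genes are counts for each cell, the deposited mitochondrial share is a percent, and each deposited S or G2M value is a score. The percent was taken here as a percent of the cell's UMIs. The headers do not say whether the counts are raw. The map positions were also used as deposited. Cell Ranger 7.0.1, Seurat 4.3.0 and the build rn6 are named in the submitters' processing notes, with no role given. The sources used here do not give how cells were filtered, how doublets and free RNA were handled or which genes gave the type names. Depth ran from 1817129 to 56007489 UMIs per animal.

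DCT/CNT cells were taken by the authors' name, and a cell's animal and group were checked against the labels, with 0 mismatches. Cells per type and animal were tested with edgeR 4.0.16 (quasi-likelihood, robust, no abundance trend) with all cells (20 types with a mean of at least 10 cells), tubule and duct cells (12 types) or distal and collecting duct cells (6 types) as the total. Medians and phase percents of types with 20 or more cells in an animal were tested with limma 3.58.1 (robust) over 18 types. All 3 groups entered each fit. Benjamini-Hochberg adjustment was made over the types in each comparison at a threshold of 0.05, and edgeR's SE was taken as the size of the log2 fold change divided by the root of F. Single values per animal went into exact permutation tests (two-sided, with the smaller tail doubled), adjusted over 3 comparisons, while the exact test of log2 odds, an alternative, counts arrangements at least as far from 0. Scripts were tested on simulated data. Nearest neighbours came from scikit-learn 1.9.0, exact tests from scipy 1.17.1 under Python 3.11.15, and R was 4.3.3 with DESeq2 1.42.0 as an alternative.

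Types were named by a rule: DCT/CNT, its neighbours DCT, PC, IC-A, IC-B and IC-A/B, the upstream TAL and TAL/MD, and others where a count concerned them. The members, lists and tests were chosen with earlier results of these data known. Alternatives were other tools, limits on UMIs or mitochondrial percent and leaving out each animal. The range of 2000 to 8000 UMIs, the distance to tubule and duct cells a log2 ratio and a p for single values counted by the size of the difference were added after seeing the data.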

Additional observations from a re-analysis of the deposited data

Results flagged for a closer look

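The distance of DCT/CNT cells from DCT cells in median mitochondrial percent was picked out because it had opposite signs in the groups. It was below 0 in 4 of 4 obese rats and above 0 in 4 of 4 lean rats, a difference of -28.3 percentage points (exact two-sided permutation p = 0.0286 with the smaller tail doubled, adjusted 0.0857). In enalapril-treated obese rats it was below 0 in 2 of 3. With the smaller tail doubled, the adjusted p could not fall under 0.05 at these group sizes. In 24 groups of 4 animals, Dixon's test at the 95% level, in which chance alone passes a small share of groups, set 0 animals apart. The share of all cells in lean rat 2 came nearest, with a gap of 0.819 of the range of lean rats, just under the critical value.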

How the results depend on the processing

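For 36 results, 237 values came from other settings and 374 from leaving out 1 animal. Of these, 215 and 352 kept their direction and their side of the threshold. The share of all cells in obese against lean rats missed the threshold by exact permutation (-1.21 as a difference of log2 odds), with at least 500 UMIs (-1.20), at least 1000 UMIs (-0.64), under 25% mitochondrial UMIs (-1.14) or 2000 to 8000 UMIs (-0.81), and the same share in enalapril-treated obese against lean rats turned to 0.042 with at least 1000 UMIs. The share of distal and collecting duct cells in enalapril-treated obese against lean rats passed with at least 500 UMIs (0.73), at least 1000 UMIs (0.75) and under 25% mitochondrial UMIs (1.25). The distance in mitochondrial percent passed for obese against lean rats when set against tubule and duct cells (-9.37) or as a log2 ratio (-0.73), and for enalapril-treated obese against obese rats with 2000 to 8000 UMIs (-7.51). The gap to DCT passed for obese (-28.3) and enalapril-treated obese (-25.5) against lean rats with the exact permutation p counted by the size of the difference (adjusted 0.0429 for both). With the replicate number as a block, the share of tubule and duct cells passed for obese (-0.80) and enalapril-treated obese (-0.86) against lean rats and turned to -0.066 between enalapril-treated obese and obese rats. The block changed the types called from 3 to 6 of 12 tubule and duct types in both comparisons with lean rats, from 2 to 1 of 6 distal types in both, and among 20 types from 3 to 5 for enalapril-treated obese against lean and from 0 to 3 against obese rats. The numbers are not shown to pair animals, since the correlations of same-numbered rats ran from -0.444 to 0.516. The sample codes share a leading number in rats 1 and 2 of each group, and in rats 3 and 4 of the obese and lean groups. No leading number is shared between groups, and the labels do not say what it stands for. Its part was not tested and cannot be fully told apart from the groups. Signs also turned, never past a threshold, for the S share in enalapril-treated obese against lean rats (-0.94 with at least 500 UMIs, -0.92 under 25%), the G2M share in enalapril-treated obese against lean (1.68) and obese rats (0.15, both under 25%), and the gap to DCT in enalapril-treated obese against obese rats (-2.98 under 25%). Leaving out 1 animal gave -1.47 to -0.73 for the share of all cells (obese against lean) and 0.48 to 0.76 for the share of distal and collecting duct cells (enalapril-treated obese against lean). For enalapril-treated obese against obese rats it gave -0.071 to 0.39 for the share of tubule and duct cells, -0.56 to 0.17 for median UMIs, -0.46 to 0.073 for median genes, -0.21 to 0.11 for UMIs relative to the animal and -0.043 to 4.71 for the share of the DCT pair. For obese against lean rats it gave -2.48 to 3.24 for the mitochondrial median and -6.08 to 3.84 for the S share, and for enalapril-treated obese against lean rats -4.11 to 5.82 for the S share and -1.84 to 1.41 for the G2M share. Types called also changed, for shares of all cells, from 12 to 6 with at least 1000 UMIs (obese against lean) and from 3 to 7 in DESeq2 (enalapril-treated obese against lean), and for tubule and duct cells from 3 to 5 with TMM factors in both comparisons with lean rats. The exact permutation test called 0 types in every family of shares. It can call a type only where most types of a family reach its smallest p, 0.0286. Its 0 calls, and its miss for the share of all cells, therefore carry no evidence. The G2M calls of 3 types in obese against lean rats fell to 0 with at least 500 UMIs or under 25%. The calls of DCT and TAL/MD in relative mitochondrial percent between enalapril-treated obese and obese rats fell to 0 in several settings. These were the mean over cells, at least 500 UMIs, the replicate block and the fit without robust moderation. The causes were not tested. With a minimum of 1000 UMIs, lean rat 2 had 12 cells left, 0 of them DCT/CNT, and stayed in the fits of shares.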
